A study of Mus musculus with 38 samples.

Results

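CD24-high PDGFRA-negative cells were followed from 48 h to 96 h of retinoic acid (RA) exposure, the interval in which mouse embryonic stem cells (mESCs) take on an ectoderm-like identity. The series consists of 4 bulk RNA-seq libraries, chosen by the time and sort gate in their labels from among 25 bulk libraries and 38 samples in all. All cells were of the E14 line, for which the labels give no genetic modification, and were grown in 2i/L, a medium with a MEK inhibitor, a GSK3 inhibitor and LIF, before RA was given at 0.25 µM. At 48 h the cells were PDGFRA-negative and in the top CD24 quartile (1 library), at 72 h they were PDGFRA-negative and in the top CD24 tercile (1 library), and at 96 h they were PDGFRA-negative and CD24-positive (2 libraries, labelled as biological replicates). The gate therefore changed along with time, and gate and time cannot be told apart in these 4 libraries. The labels name a barcode for the 96 h libraries and none for the 48 h and 72 h libraries, and since no label gives the sequencing run, a run that differed with time cannot be told apart from time either. The groups set beside them were undifferentiated mESCs in 2i/L (2 libraries), PDGFRA-positive cells at 72 h (1 library), PDGFRA-positive XEN-like cells at 96 h (2 libraries), the lower CD24 gates at 48 h and 72 h (5 libraries) and unsorted cultures (1 library per time point). All come from the same cell line.

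RNA was counted from 3′ ends with unique molecular identifiers (UMIs), so that each captured molecule counts 1 time, and levels are given as UMIs per 1000000 UMIs of the library (CPM). The 4 libraries held 1583805 UMIs at 48 h, 1302915 at 72 h, and 1799301 and 1547817 at 96 h (replicates 1 and 2). In bulk RNA, fewer cells of a type and less RNA per cell cannot be told apart. The interval of a ratio given for 72 h against 48 h covers counting error only.

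RA binds nuclear receptors of the RAR family, which sit with RXR on short DNA elements and switch on genes such as the anterior Hox genes and the RA-degrading enzyme Cyp26a1. Cells that leave naive pluripotency under RA lose Pou5f1 and its partners and may gain genes of the neural plate, the sheet of ectoderm from which the nervous system forms. ID proteins, which hold back basic helix-loop-helix factors, and D-type cyclins, which drive cells through G1, are known to keep neural progenitors dividing. CD24 is a surface glycoprotein of epithelial and neural progenitors, and PDGFRA marks the extraembryonic endoderm (XEN)-like cells that arise in the same cultures.

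The 4 genes Crabp1, Sox11, Cd24a and Hoxb2 were taken as markers of this population. The paper, however, describes the CD24-high cells at 48 h as like post-implantation epiblast. Within the series Crabp1, Sox11 and Cd24a had their lowest level at 48 h and their highest at 96 h, whereas Hoxb2 did not. Crabp1, a cytosolic RA-binding protein, was at 38.5 CPM at 48 h, 291 CPM at 72 h, and 645 and 762 CPM at 96 h. It was the only 1 of the 4 to pass the test at 96 h against 48 h, with a log2 fold change of 3.90 ± 0.54 (SE) and an adjusted p of 0.00631. Both libraries at 96 h lay above the 72 h library, which lay above the 48 h library, and mESCs were at 37.2 and 13.9 CPM. The 48 h library was thus close to 1 of the mESC libraries, and Crabp1 did not set it apart from mESCs. Cd24a, whose protein was used for the sort, was at 127 CPM at 48 h, 256 CPM at 72 h, and 268 and 388 CPM at 96 h, with a log2 fold change of 1.08 ± 0.56 (adjusted p = 0.469). Sox11, a SoxC transcription factor of neural progenitors, was at 13.3 CPM at 48 h, 39.9 CPM at 72 h, and 64.5 and 69.8 CPM at 96 h, with a log2 fold change of 2.04 ± 0.55 (adjusted p = 0.0932). Hoxb2, a hindbrain Hox gene, was at 452 CPM at 48 h and 470 CPM at 72 h, and the replicates at 96 h were far apart, at 389 and 117 CPM. Its level in mESCs was 1.31 and 2.61 CPM, below all 4 libraries.

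**Figure D1:**
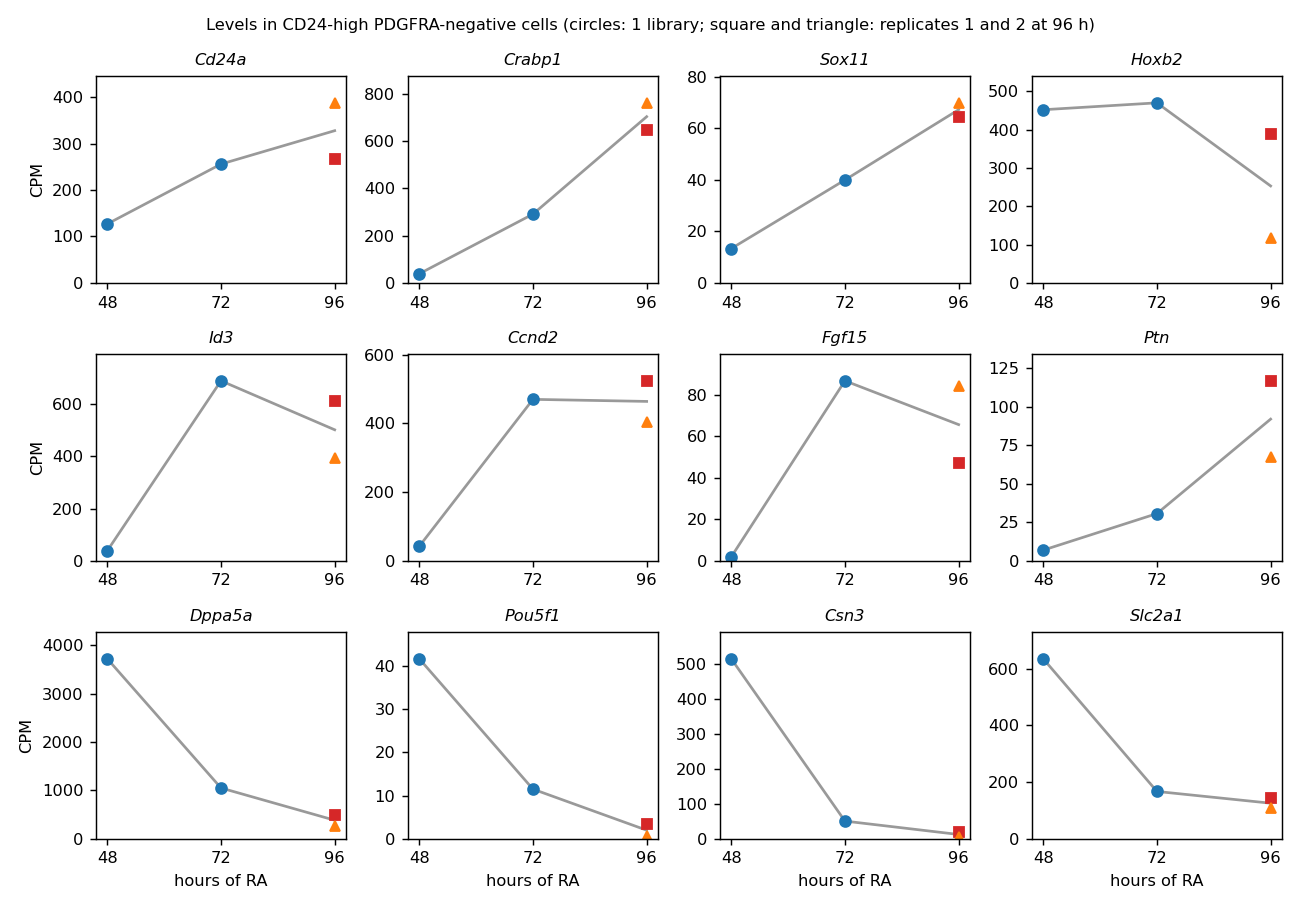
CPM of 12 genes (y axis, from 0) against hours of RA (x axis) in CD24-high PDGFRA-negative cells. Circles are the lone libraries at 48 h and 72 h, the square and triangle are replicates 1 and 2 at 96 h, and the grey line joins 48 h, 72 h and the mean at 96 h. Crabp1 goes from 38.5 CPM to 645 and 762 CPM, and Dppa5a from 3720 CPM to 494 and 273 CPM.

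Between 48 h and 96 h, 25 genes rose (0.256% of 9750 genes tested) and 209 fell (2.14%), together 2.4%. The genes that rose were led by Col4a2, Fgf15, Crabp1, Nedd9, Cyr61, Ptn, Id3, Myh10, Igfbp5 and Ccnd2, and those that fell by A430089I19Rik, Csn3, 2410088K16Rik, Plac9b, 1700029P11Rik, Fam25c, Pou5f1, Dnmt3l, Gm2016 and Gm5039. The test was edgeR's quasi-likelihood test on 9 libraries in 6 groups, in which the lone 48 h library is assumed to vary like the 3 replicated groups, with 3 residual degrees of freedom. A permutation of 1 library against 2 cannot go below p = 0.333. Without replicate 2 at 96 h, 15 genes rose and 65 fell, 14 and 59 of them among the calls of the full fit. Without replicate 1, 50 rose, and 14 of the 25 genes that rose and 158 of the 209 that fell were still called. Without the first or the second mESC library, 53 or 49 genes rose, all 25 among them. With totals in place of TMM factors, which shifts the log2 fold change of the median gene by 0.30, the calls were 9 and 36. With DESeq2, a second test, 15 of the 25 and 148 of the 209 were still called. For single genes, lost calls are given below mainly for a replicate at 96 h left out. A gene without such a mention may still lose its call otherwise. Id3 and Myh10 lost theirs with totals, and Dppa2 with totals and with DESeq2.

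In most of the called genes the larger part of the change fell before 72 h. This is a description, since the 48 h library is part of both the calls and the first step. The 25 genes that rose had a median log2 ratio of CPM of 2.31 over the first step and 0.62 over the second, and 24 of the 25 had the larger step first. Among the 209 that fell, 183 had the larger step first. Unsorted cultures, which share no library with the series, moved the same way: 23 of the 25 genes were higher in the whole culture at 96 h than at 48 h, against 56.9% of all genes tested, and 205 of the 209 were lower, against 43.0%.

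**Figure D2:**
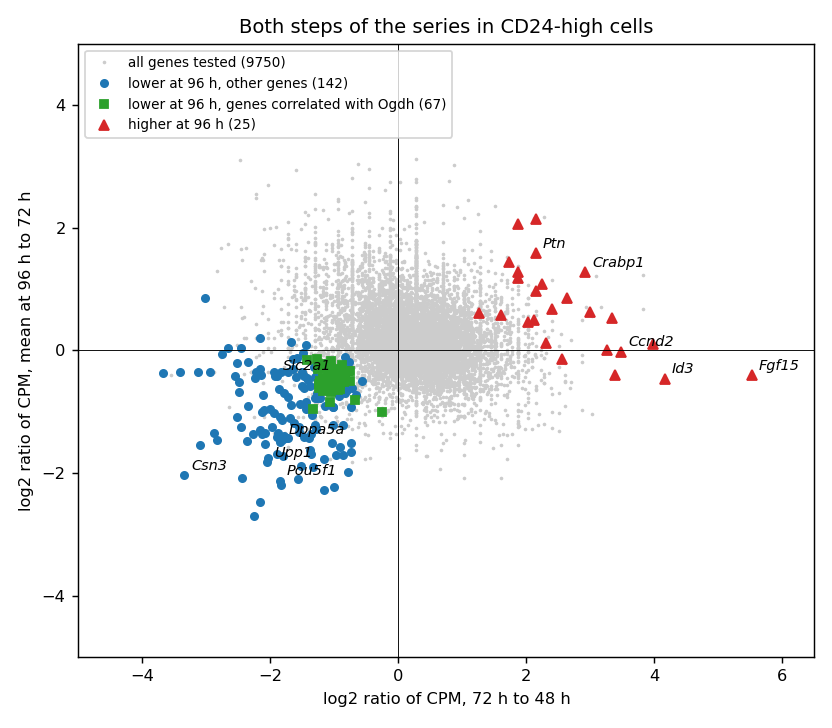
Log2 ratio of CPM from 48 h to 72 h (x axis) against log2 ratio from 72 h to the mean of both libraries at 96 h (y axis), with counts under 3 set to 3. Grey points are the 9750 genes tested, red triangles the 25 genes that rose between 48 h and 96 h, blue circles and green squares the 142 and 67 genes that fell, the squares being genes whose level correlates with that of Ogdh over the other bulk libraries. Red points lie to the right of 0 and most lie nearer to 0 on the y axis.

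Genes of the ID family rose together. Of 9 tested genes of the Notch pathway and proneural list, 3 rose, against 0.256% of all genes, and these were Id1, Id2 and Id3. Id3 (chr4:136143497-136145755, GRCm38) was at 38.5 CPM at 48 h, 689 CPM at 72 h, and 610 and 393 CPM at 96 h (log2 fold change 3.39 ± 0.65, adjusted p = 0.0197). Id2 was at 44.8 CPM at 48 h, 470 CPM at 72 h, and 328 and 384 CPM at 96 h (2.70 ± 0.50, adjusted p = 0.0179). Id1 was at 6.31 CPM at 48 h, 60.6 CPM at 72 h, and 73.9 and 47.8 CPM at 96 h (2.95 ± 0.59, adjusted p = 0.0244). In each of the 3 genes the 48 h library lay below the other 3. The level at 72 h against 48 h gave ratios of 17.9 (95% interval 13.8 to 23.6) for Id3, 10.5 (8.20 to 13.6) for Id2 and 9.60 (4.96 to 20.8) for Id1. Id4 had no more than 2 UMIs in any of the 4 libraries. Id1 lost its call without replicate 1 at 96 h (adjusted p = 0.0739).

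The other 6 tested genes of this list, which holds 26, did not pass, and most Notch ligands were too low to be tested. Notch1 had 3.79 CPM at 48 h, 5.37 CPM at 72 h, and 12.2 and 12.9 CPM at 96 h (log2 fold change 1.42 ± 0.73, adjusted p = 0.461). Hes5, a Notch target of neural progenitors, had 0 UMIs at 48 h, 4 at 72 h, and 17 and 11 at 96 h (adjusted p = 0.25). Hes1 was at 44.2 CPM at 48 h, 47.6 CPM at 72 h, and 85.0 and 75.6 CPM at 96 h (adjusted p = 0.703). The proneural factor Neurog2 was not tested because of low counts, with at most 4 UMIs.

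Cyclins D1 and D2 rose and cyclin D3 was not called. Ccnd2 (chr6:127125162-127152193) was at 42.3 CPM at 48 h, 470 CPM at 72 h, and 524 and 404 CPM at 96 h (log2 fold change 3.15 ± 0.51, adjusted p = 0.0116), and was at 0.875 and 0.435 CPM in mESCs. Ccnd1 was at 18.9 CPM at 48 h, 82.1 CPM at 72 h, and 95.6 and 136 CPM at 96 h (2.32 ± 0.49, adjusted p = 0.0331), and its call was lost without replicate 2 at 96 h (adjusted p = 0.103). Ccnd3 was at 32.2 CPM at 48 h, 23.0 CPM at 72 h, and 24.5 and 26.5 CPM at 96 h (adjusted p = 0.661). At 72 h Ccnd2 lay between the libraries at 96 h and Ccnd1 lay below both. These were the 2 genes that rose among 16 tested of the oncofetal and heterochronic list. Of its other members, Lin28b, Hmga2 and Mycn had log2 fold changes of 2.03, 1.22 and 1.33 with adjusted p of 0.249, 0.499 and 0.305, and Lin28a, an RNA-binding protein of early progenitors, was at 207 CPM at 48 h, 163 CPM at 72 h, and 166 and 155 CPM at 96 h.

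Fgf15, an FGF of the neural plate, was all but absent at 48 h. It had 3 UMIs at 48 h, 113 at 72 h, and 85 and 130 at 96 h, or 1.89, 86.7, 47.2 and 84.0 CPM. The ratio of 72 h to 48 h was 45.8 (95% interval 15.3 to 225), and the test of 96 h against 48 h gave an adjusted p of 0.0116. It was the only gene to rise among 9 tested of the post-implantation epiblast list and among 15 of the FGF and ERK feedback list. The other members of the first list did not pass or were not tested. Zic2, a zinc finger factor that neural cells also use, was at 39.8 CPM at 48 h, 76.0 CPM at 72 h, and 76.7 and 42.6 CPM at 96 h (adjusted p = 0.844). Fgf5 had at most 2 UMIs, and Pou3f1 was at 7.58 CPM at 48 h, 0.768 CPM at 72 h, and 1.11 and 2.58 CPM at 96 h (adjusted p = 0.493). In the FGF list Etv5, an ERK-dependent ETS factor, fell from 12.6 CPM at 48 h through 6.91 CPM at 72 h to 3.33 and 2.58 CPM at 96 h (-2.36 ± 0.55, adjusted p = 0.0479), a call that was lost without replicate 1 (adjusted p = 0.16) or replicate 2 (adjusted p = 0.19).

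Among the genes that rose were also Ptn and Ednrb. Ptn, which encodes the growth factor pleiotrophin of radial glia, was at 6.95 CPM at 48 h, 30.7 CPM at 72 h, and 117 and 67.2 CPM at 96 h (log2 fold change 3.40 ± 0.57, adjusted p = 0.0143), and had no UMI in either mESC library. Ednrb, the endothelin receptor of neural crest and glial progenitors, was at 22.7 CPM at 48 h, 134 CPM at 72 h, and 127 and 116 CPM at 96 h (2.11 ± 0.48, adjusted p = 0.0444). In Ptn each step was upward, whereas the Ednrb level at 72 h lay above both libraries at 96 h. Ednrb lost its call without replicate 1 (adjusted p = 0.0947) or replicate 2 (adjusted p = 0.0985). They were the only calls among 16 tested radial glia genes and 10 tested neural crest genes. Msx1 and Pax3, of the neural plate border, both had 0 UMIs at 48 h, and had 12 and 7 at 72 h, 38 and 14 in replicate 1 and 3 and 6 in replicate 2 at 96 h, with adjusted p of 0.24 and 0.334.

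Neural plate transcription factors gave no call. None of 16 tested passed, none of 7 tested SoxB and SoxC genes, and the median log2 fold changes were 1.38 and 0.57, beside 0.05 over all genes. Pax6 was at 15.2 CPM at 48 h, 26.1 CPM at 72 h, and 46.7 and 21.3 CPM at 96 h (adjusted p = 0.618). Sox1 was at 13.3 CPM at 48 h, 16.1 CPM at 72 h, and 26.1 and 22.6 CPM at 96 h (adjusted p = 0.728), and Sox2 at 28.4, 43.0, 55.0 and 50.4 CPM in the same order (adjusted p = 0.643). All 3 had their highest library at 96 h, and none passed the test. Nes, which encodes the intermediate filament nestin, met the rising pattern with 6.31 CPM at 48 h, 15.4 CPM at 72 h, and 28.9 and 24.6 CPM at 96 h, but not the test (adjusted p = 0.15). Cdh2, N-cadherin of the neural plate, was at 17.0 CPM at 48 h, 53.7 CPM at 72 h, and 87.3 and 73.7 CPM at 96 h (1.93 ± 0.48, adjusted p = 0.0618), and Cdh1, E-cadherin, stayed between 6.31 and 12.9 CPM. With the median standard error of 0.53 on the log2 scale, differences of this size were not detectable in most genes.

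The 24 neuronal genes summed to 302 CPM at 48 h, 135 CPM at 72 h, and 160 and 216 CPM at 96 h, with Stmn2 the largest part at 48 h. Dcx had at most 5 UMIs and Elavl3 at most 1. Tubb3, a neuronal tubulin that mESCs also express, was at 27.1 CPM at 48 h, 13.8 CPM at 72 h, and 16.7 and 56.9 CPM at 96 h (adjusted p = 0.952). The only call among 9 tested neuronal genes was downward: Stmn2, a microtubule regulator, was at 211 CPM at 48 h, 56.8 CPM at 72 h, and 50.6 and 34.2 CPM at 96 h (-2.62 ± 0.57, adjusted p = 0.0375). Its level in mESCs was 358 and 850 CPM, above all 4 libraries, and its call was lost without replicate 1 (adjusted p = 0.103) or replicate 2 (adjusted p = 0.117).

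Further genes that rose included Tpm1, Cyr61, Igfbp5, Nedd9, Peg3 and Jun. Tpm1, a tropomyosin, was at 41.7 CPM at 48 h, 138 CPM at 72 h, and 325 and 423 CPM at 96 h (2.88 ± 0.43, adjusted p = 0.00858). Cyr61, a secreted matrix protein and target of YAP, was at 5.05 CPM at 48 h, 18.4 CPM at 72 h, and 82.3 and 71.7 CPM at 96 h (3.61 ± 0.59, adjusted p = 0.0116). Igfbp5, which binds insulin-like growth factors, was at 5.05 CPM at 48 h, 31.5 CPM at 72 h, and 65.6 and 48.5 CPM at 96 h (3.17 ± 0.55, adjusted p = 0.0143). These 3 genes were higher in every later library than in every earlier one. Nedd9, a docking protein of cell adhesion signalling, had 3 UMIs at 48 h, 39 at 72 h, and 64 and 45 at 96 h (adjusted p = 0.0479). Its ratio of 72 h to 48 h was 15.8 (95% interval 5.02 to 79.9), and its call was lost without replicate 1 (adjusted p = 0.117) or replicate 2 (adjusted p = 0.0797). Peg3, a paternally expressed zinc finger gene, was the only call among 22 tested imprinted genes, with 12.0 CPM at 48 h, 56.8 CPM at 72 h, and 149 and 91.7 CPM at 96 h (3.01 ± 0.57, adjusted p = 0.0186). Jun, a subunit of AP-1, was at 3.79 CPM at 48 h, 13.8 CPM at 72 h, and 33.9 and 32.9 CPM at 96 h (2.82 ± 0.58, adjusted p = 0.0286), and it lost its call without replicate 1 (adjusted p = 0.0611) or replicate 2 (adjusted p = 0.0892).

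Some of the genes that rose were also low in the 48 h gate compared with the unsorted culture of the same hour. Myh10, non-muscle myosin IIB, was at 53 CPM in the 48 h library and 235 CPM in the whole culture at 48 h, and then at 424 CPM at 72 h, and 931 and 374 CPM at 96 h (3.29 ± 0.59, adjusted p = 0.0156). Anp32a, a nuclear phosphoprotein, was at 28.4 CPM in the 48 h library and 170 CPM in the whole culture, and then at 86.0 CPM at 72 h, and 155 and 102 CPM at 96 h (1.87 ± 0.41, adjusted p = 0.0385). In unsorted cultures Anp32a was at 186 CPM at 72 h and 166 CPM at 96 h, so that no rise was seen there. Anp32a was named after its values were seen, and its call was lost without replicate 1 (adjusted p = 0.108). What part the sort had in these levels was not tested.

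Genes of pluripotency fell. Of 16 tested naive pluripotency genes 3 fell and of 10 tested core pluripotency genes 3 fell, against 2.14% of all genes, with median log2 fold changes of -1.62 and -1.67. The filter before the test took in all 9 libraries, mESCs among them. Of the 16 naive genes, 8 had at least 10 UMIs in 1 of the 4 libraries of the series, and 1 had none in any. Their median therefore rests in part on genes near the floor. Of the core genes, 9 reached 10 UMIs. Nanog, among the core genes that fell, also belongs to a block of correlated genes described below. Dppa5a (chr9:78367052-78368177), an RNA-binding protein of naive mESCs, was at 3720 CPM at 48 h, 1050 CPM at 72 h, and 494 and 273 CPM at 96 h (-3.59 ± 0.34, adjusted p = 0.000982). Its level in mESCs was 11000 and 15800 CPM, so the series began below the level of mESCs and went down at each step. Reads of Dppa5a may be shared with its near-copy Gm6083. Zfp42, the gene of REX1, fell from 56.8 CPM at 48 h to 23.0 CPM at 72 h, and to 20.6 and 13.6 CPM at 96 h (-2.03 ± 0.40, adjusted p = 0.0226). Dppa3 fell from 13 UMIs at 48 h to 1 at 72 h, and 2 and 0 at 96 h (adjusted p = 0.0474). The calls of Zfp42 and Dppa3 were lost without replicate 2 (adjusted p of 0.102 and 0.163). Dppa3 also lost its call with DESeq2, a second test, and in a fit of the 4 libraries of the series alone. Other naive factors were already low at 48 h: Esrrb had 2 UMIs there and 66.1 and 80.1 CPM in mESCs, and Fgf4 had 1 UMI there and 24.1 and 31.8 CPM in mESCs.

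Pou5f1, which encodes OCT4, fell from 41.7 CPM at 48 h through 11.5 CPM at 72 h to 3.33 and 0.646 CPM at 96 h (-4.58 ± 0.73, adjusted p = 0.011), and both mESC libraries were higher, at 265 and 292 CPM. In unsorted cultures, which keep CD24-low and PDGFRA-positive cells too, the 48 h, 72 h and 96 h levels of Pou5f1 were 56.5, 28.3 and 29.2 CPM. What part any of these cells had in those levels was not tested. Dppa2 fell from 169 CPM at 48 h through 33.0 CPM at 72 h to 21.7 and 1.94 CPM at 96 h (-4.12 ± 0.80, adjusted p = 0.0213). Dnmt3l, a cofactor of the de novo DNA methyltransferases, fell from 104 CPM at 48 h through 14.6 CPM at 72 h to 6.67 and 3.88 CPM at 96 h (-4.57 ± 0.60, adjusted p = 0.00546), the only call among 10 tested genes of DNA methylation. All 3 genes were lower at each time than at the one before it. Sall4 and Sox2, shared by pluripotent and neural cells, were not called (log2 fold changes -0.75 and 0.59, adjusted p of 0.461 and 0.643).

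An octamer, ATTTGCAT, the element that POU factors such as OCT4 bind, was searched on both strands of the promoters of the genes described here, over 250 bases before to 50 bases after the start site, because Zfp42 is a textbook target of OCT4 and both fell. It is present in 1.74% of 32851 mouse promoters. The Zfp42 promoter held it, 186 bases before the start site on the coding strand (that of Sox1 held it 18 bases after the start), and the 250 bases before the start (RefSeq, GRCm38.p6, chr8:43307010-43307259, minus strand) are shown with the octamer in capitals. The octamer was not particular to genes that fell. The promoters of Zfp296, Pim2, Sox12, Dll1 and Hmga1, which are in the lists and were not called, held it too. So did those of 2700038G22Rik, which fell, and of Chchd10 and Il33, which were also called at 96 h against 48 h. The share of called genes that hold it was not computed. The match is a description of the letters and not of binding.
Zfp42: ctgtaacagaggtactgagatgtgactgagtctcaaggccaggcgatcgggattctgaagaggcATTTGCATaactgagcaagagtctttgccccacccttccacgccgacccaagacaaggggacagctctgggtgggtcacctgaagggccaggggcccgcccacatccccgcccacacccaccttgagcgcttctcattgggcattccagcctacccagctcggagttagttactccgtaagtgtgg

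Several of the largest falls were in genes whose level in mESCs was far below that at 48 h. Csn3 (chr5:87925579-87932665), a milk casein gene, was at 516 CPM at 48 h, 50.7 CPM at 72 h, and 19.5 and 5.17 CPM at 96 h (-5.67 ± 0.53, adjusted p = 0.000982), and was at 0.437 and 0.435 CPM in mESCs. A430089I19Rik fell from 66 UMIs at 48 h to 10 at 72 h, and 3 and 0 at 96 h (-5.74 ± 0.79, adjusted p = 0.00631), and was at 0.875 and 0.435 CPM in mESCs. Slc2a1, which encodes the glucose transporter GLUT1, fell from 635 CPM at 48 h through 167 CPM at 72 h to 143 and 108 CPM at 96 h (-2.65 ± 0.30, adjusted p = 0.00234), and was at 30.2 and 32.2 CPM in mESCs. In these 3 genes the 48 h library lay above mESCs and above all later libraries. Slc2a1 was the only call among 19 tested genes of hypoxia and glycolysis. Slc2a3, a further glucose transporter, was at 370 CPM at 48 h, 269 CPM at 72 h, and 202 and 461 CPM at 96 h (adjusted p = 0.779), and Ldha and Pgk1 had log2 fold changes of -0.84 and -0.25 (adjusted p of 0.532 and 0.901). Upp1, uridine phosphorylase, differed in that its level in mESCs was high, at 612 and 423 CPM. It fell from 232 CPM at 48 h through 56.0 CPM at 72 h to 16.7 and 14.9 CPM at 96 h (-4.17 ± 0.38, adjusted p = 0.000982).

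Genes of the Zscan4 and Tcstv families, which mark the 2-cell-like state of mESC cultures, also fell. Both families were picked once their values were known, and 6 of their 8 genes, all tested, were called, beside 2.14% of all genes. Zscan4c was at 200 CPM at 48 h, 69.8 CPM at 72 h, and 34.5 and 3.23 CPM at 96 h (-3.71 ± 0.70, adjusted p = 0.0187), and was at 1.75 and 1.31 CPM in mESCs. The genes called were Zscan4a, Zscan4c, Zscan4d, Zscan4f, Tcstv1 and Tcstv3. Members of these families are near-identical, so the split of reads between them is uncertain, and the same holds for Plac9b, Gm2016 and Gm5039 in the list above. Replicate 2 was the lowest library in Zscan4c, and Zscan4d and Tcstv1 lost their calls without it (adjusted p of 0.0858 and 0.0962). Tcstv3 lost its call without replicate 1 (adjusted p = 0.207) or replicate 2 (adjusted p = 0.161).

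A block of 87 genes, of 9750 tested, accounted for 67 of the 209 genes that fell (32.1%) and for 0 of the 25 that rose. Of the 87 genes 67 fell, beside 2.14% of all genes tested. As 0.256% of all genes tested rose, the 0 among 87 genes says little. The block was found after the values were seen: its genes reach at least 100 CPM and have a correlation of at least 0.95 with Ogdh, a subunit of the 2-oxoglutarate dehydrogenase complex, over the 21 bulk libraries that are not part of the series. That correlation is a description across libraries that share a protocol. Ogdh was at 7220 CPM at 48 h, 3210 CPM at 72 h, and 2690 and 1380 CPM at 96 h (-2.15 ± 0.32, adjusted p = 0.00858). Cxcr2, a chemokine receptor known from neutrophils, was at 1680 CPM at 48 h, 863 CPM at 72 h, and 764 and 463 CPM at 96 h (-1.77 ± 0.31, adjusted p = 0.0143). Omd, known from bone, was at 1470 CPM at 48 h, 706 CPM at 72 h, and 700 and 399 CPM at 96 h (-1.74 ± 0.32, adjusted p = 0.0172). All 87 genes had a negative log2 fold change, from -2.60 to -0.94 with a median of -1.71, and 20 of them did not pass the test. The shared sign follows in part from how the block was chosen. Ogdh itself fell, and the 21 libraries include the lower CD24 gates at 48 h and 72 h and the unsorted cultures of the same hours. The sign is therefore a description and no support for the block. Tyr, the pigment cell enzyme tyrosinase, and Cyp2e1, a liver cytochrome, belong to the block too (log2 fold changes -1.80 and -1.90). Ogdh kept its call without replicate 2 at 96 h (adjusted p = 0.0363), whereas Cxcr2, Omd, Tyr and Cyp2e1 lost theirs (adjusted p of 0.0861, 0.0985, 0.173 and 0.056).

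Together the block took 9.25% of UMIs at 48 h, 4.65% at 72 h, and 4.47% and 2.55% at 96 h. It took 4.99% in the whole culture at 48 h, 2.08% in the whole culture at 96 h, 2.91% and 2.47% in mESCs, and 13.2%, 11.4% and 10.1% in the 3 lower CD24 quartiles at 48 h. The share was therefore higher in each sorted fraction at 48 h than in the unsorted culture of the same hour, and lower with each step of CD24. Nanog, a core pluripotency factor, is a member of the block by the same correlation. It was at 417 CPM at 48 h, 175 CPM at 72 h, and 205 and 78.8 CPM at 96 h (-1.88 ± 0.44, adjusted p = 0.0479). Its level in mESCs was 163 and 155 CPM, so that only replicate 2 at 96 h lay below mESCs. The call of Nanog was lost without replicate 2 (adjusted p = 0.163). Of the 209 genes that fell, 142 lie outside the block. This is a count from the same fit, in which the block genes were kept.

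**Figure D3:**
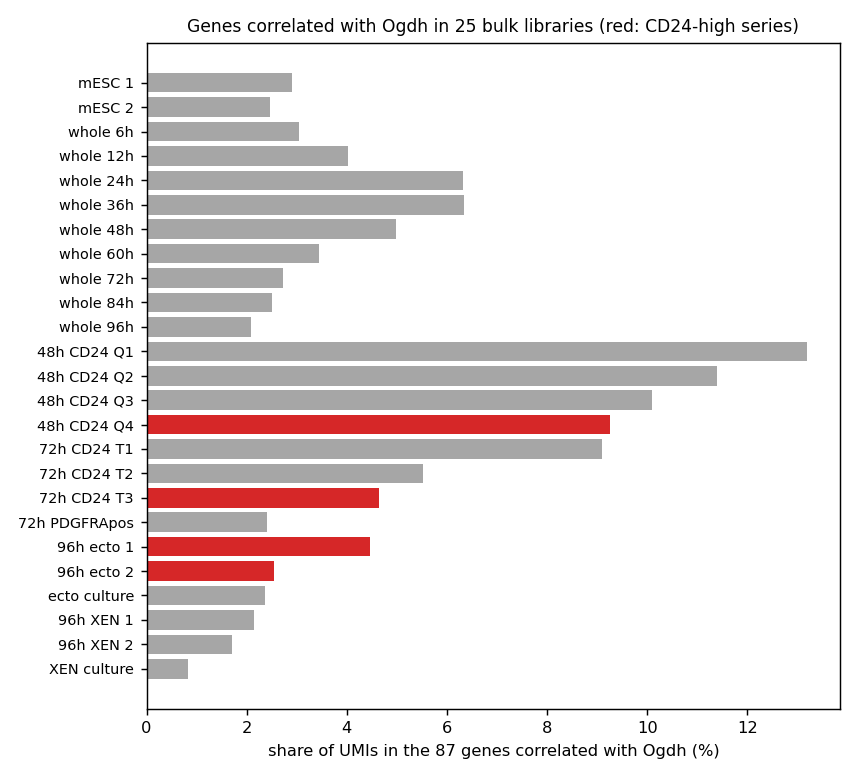
Percent of all UMIs (x axis) in the 87 genes whose level correlates with that of Ogdh, in each of the 25 bulk libraries (y axis). The 4 red bars are the CD24-high series, with 9.25% at 48 h, 4.65% at 72 h, and 4.47% and 2.55% at 96 h, and the 48 h quartiles reach 13.2%.

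Most transcripts of the block carry a stretch of the B2 family, short interspersed repeats that are spread through mouse genes and transcripts. The stretch of 20 bases shared by most block genes was taken from their GENCODE M21 transcripts, where 44 of the 80 genes with a sequence (55.0%) hold it in sense and a further 22 (27.5%) hold only its reverse complement. Over all 9198 tested genes with a sequence the shares were 3.44% and 3.33%. It was in 4.72% of the other genes that fell and in 0 of 23 genes that rose. Among all 316 tested genes with the stretch 13.3% fell, and among 8882 without it 1.67% did. Of the 42 genes with the stretch that fell, 36 are block genes and 6 are not. Since the stretch was picked from the block, these shares describe it and were not tested. Of the 44 genes with it in sense, 23 hold it within 500 bases of the 3′ end, at which these libraries are made (median 402 bases). The following examples show it in capitals with the 5 bases on each side, first in sense and then in reverse complement. It lies 135, 89, 1275 and 95 bases from the 3′ end in Luc7l2, Casc4, Cxcr2 and Cyp2e1. In Omd and Tyr the reverse complement lies 1793 and 3267 bases from it.
Luc7l2: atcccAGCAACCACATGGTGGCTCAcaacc
Casc4: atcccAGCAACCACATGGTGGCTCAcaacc
Cxcr2: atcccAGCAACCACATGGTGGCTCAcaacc
Cyp2e1: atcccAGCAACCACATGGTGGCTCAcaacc
Omd: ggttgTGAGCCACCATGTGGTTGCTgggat
Tyr: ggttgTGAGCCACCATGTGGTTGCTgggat
The windows of Luc7l2, Casc4, Cxcr2 and Cyp2e1 are identical, and those of Omd and Tyr are their exact reverse complement. The genes lie on different chromosomes or far apart (Luc7l2 at chr6:38551334-38609470, Casc4 at chr2:121866970-121936220, Cxcr2 at chr1:74153989-74161246, Cyp2e1 at chr7:140763739-140774987, Omd at chr13:49582462-49592822 and Tyr at chr7:87424771-87493512, GRCm38). Ogdh, the gene that defines the block, holds neither the stretch nor its reverse complement. Nanog does not hold the stretch in sense, and whether it holds the reverse complement is not given here. The files give counts per gene, so where in these transcripts the UMIs fell, and whether UMIs from other copies of the repeat were counted to these genes, was not tested. The levels of the repeat-bearing block genes, and the 67 falls among the 209, are therefore levels of what was counted to those gene names.

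Among 19 tested genes of the retinoid pathway, 2 rose and 2 fell. Beside Crabp1, the gene that rose was Nr2f2, which encodes the orphan receptor COUP-TFII, with 9.47 CPM at 48 h, 46.8 CPM at 72 h, and 59.5 and 42.6 CPM at 96 h (2.12 ± 0.46, adjusted p = 0.0371). Cyp26a1, which degrades RA, was among the genes that fell. It was at 80.2 CPM at 48 h, 32.2 CPM at 72 h, and 32.2 and 21.3 CPM at 96 h (-1.88 ± 0.39, adjusted p = 0.0284). The whole cultures did not show a lower Cyp26a1 level with time, the 48 h, 72 h and 96 h values being 57.3, 110 and 135 CPM. Nr2f2 lost its call without replicate 1 (adjusted p = 0.124) or replicate 2 (adjusted p = 0.0802), and Cyp26a1 lost its call without replicate 2 (adjusted p = 0.131). Crabp2, the RA carrier that delivers RA to its receptors, was at 1090 CPM at 48 h, 1640 CPM at 72 h, and 1590 and 1110 CPM at 96 h, with a log2 fold change of 0.00 ± 0.30. Rarb, an RA receptor induced by RA itself, was at 7.58 CPM at 48 h, 17.7 CPM at 72 h, and 25 and 9.04 CPM at 96 h (adjusted p = 0.696).

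Cyp26a1 and Rarb are the textbook genes with an RA response element of the DR5 type in their promoters, and they are shown because one of them, Cyp26a1, fell, while Rarb did not pass the test, and the difference between them was not tested. A DR5 element was searched as a pair of half-sites, in the same orientation with 5 bases between them, in 16 forms and on both strands. A half-site was AGGTCA in its common form, and the variants allowed were AGTTCA on one hand, GGGTCA on the other, and lastly GGTTCA with both changes. It is present in 32 of 32851 mouse promoters (0.0974%). Among the promoters of the genes described here, those of Cyp26a1 (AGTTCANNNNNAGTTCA, minus strand, first base 32 bases before the start site) and Rarb (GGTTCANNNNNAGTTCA, plus strand, 53 bases before it) held 1. The 250 bases before each start site (RefSeq, GRCm38.p6, chr19:37697558-37697807 on the plus strand and chr14:16575477-16575726 on the minus strand) are shown with the element in capitals.
Cyp26a1: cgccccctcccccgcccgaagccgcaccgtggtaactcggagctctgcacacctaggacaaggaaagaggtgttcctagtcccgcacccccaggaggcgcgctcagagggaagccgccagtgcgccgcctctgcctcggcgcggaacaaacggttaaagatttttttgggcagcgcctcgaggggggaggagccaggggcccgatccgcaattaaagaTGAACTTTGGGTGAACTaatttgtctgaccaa
Rarb: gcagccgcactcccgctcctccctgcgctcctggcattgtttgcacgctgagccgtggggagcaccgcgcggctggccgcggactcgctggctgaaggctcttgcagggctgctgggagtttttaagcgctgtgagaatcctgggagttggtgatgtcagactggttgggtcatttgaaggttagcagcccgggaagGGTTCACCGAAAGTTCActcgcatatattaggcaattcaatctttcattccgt

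Hox genes gave no call. Of 39 Hox genes 17 reached 10 UMIs in 1 of the 4 libraries, 9 had none in any, 16 were tested and 0 passed in either direction, with a median log2 fold change of -0.94. Their summed level was 753 CPM at 48 h, 688 CPM at 72 h, and 637 and 194 CPM at 96 h. The summed level of replicate 2 stood apart from the other 3 libraries, and Hoxb2 alone made up 452, 470, 389 and 117 CPM of these sums. Hoxb1, an early RA-responsive gene of the hindbrain, was at 46.1 CPM at 48 h, 9.98 CPM at 72 h, and 13.9 and 0.646 CPM at 96 h (-2.93 ± 0.81, adjusted p = 0.0998). Hoxb4, of the posterior hindbrain, stayed between 8.21 and 11.1 CPM. Of the TALE cofactors of HOX proteins, 0 of 5 tested passed, and Meis1 was at 107 CPM at 48 h, 115 CPM at 72 h, and 152 and 108 CPM at 96 h.

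The 2 libraries at 96 h differed in Hox genes, in some other genes known to respond to RA and in XEN genes, which were singled out for that difference. The retinoid list as a whole summed to 2740 and 2190 CPM in replicates 1 and 2, and Crabp1 (645 and 762 CPM) was not lower in replicate 2. Stra8, an RA target best known from meiosis, was 8.54 times higher in replicate 1 than in replicate 2, with 322 CPM at 48 h, 99.0 CPM at 72 h, and 82.8 and 9.69 CPM at 96 h. Dhrs3, a retinaldehyde reductase induced by RA, was 16.2 times higher in replicate 1, with 191 CPM at 48 h, 81.4 CPM at 72 h, and 73.4 and 4.52 CPM at 96 h. Neither passed the test (adjusted p of 0.124 and 0.188). In XEN-like cells at 96 h, Stra8 was at 48.8 CPM in replicate 1 and 7.29 CPM in replicate 2, so that replicate 2 was the lower one there as well.

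Markers of XEN-like cells were measurable in the series and highest in replicate 2 at 96 h. All 11 XEN markers had at least 10 UMIs in 1 of the 4 libraries, and their summed level was 244 CPM at 48 h, 356 CPM at 72 h, 485 CPM in replicate 1 and 1780 CPM in replicate 2. Pdgfra, against which the cells were sorted, was at 1.89 CPM at 48 h, 2.30 CPM at 72 h, and 3.33 and 36.8 CPM at 96 h, and at 144 and 143 CPM in XEN-like cells. Dab2, an endocytic adaptor of endoderm, was at 14.5 CPM at 48 h, 35.3 CPM at 72 h, and 30.6 and 242 CPM at 96 h. Replicate 2 stood apart in both genes, and none of the markers was at 0 in all 4 libraries. Col4a2, a basement membrane collagen, was the only XEN marker called. It had 0 UMIs at 48 h, 11 at 72 h, and 40 and 81 at 96 h, which is at least 19.7-fold higher at 96 h when the floor of 3 UMIs is used for 48 h (adjusted p = 0.0479). Its call was lost without replicate 2 (adjusted p = 0.0802). Acta2, Krt8 and Krt18 were also higher in replicate 2 (25.6 and 183 CPM, 26.1 and 69.1 CPM, and 56.7 and 172 CPM in replicates 1 and 2), and none was called. What part XEN-like cells had in these levels was not tested. Of 10 mesoderm markers 4 were at 0 in all 4 libraries, T and Tbx6 among them, and their summed level lay between 15.5 and 61.9 CPM.

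**Figure D4:**
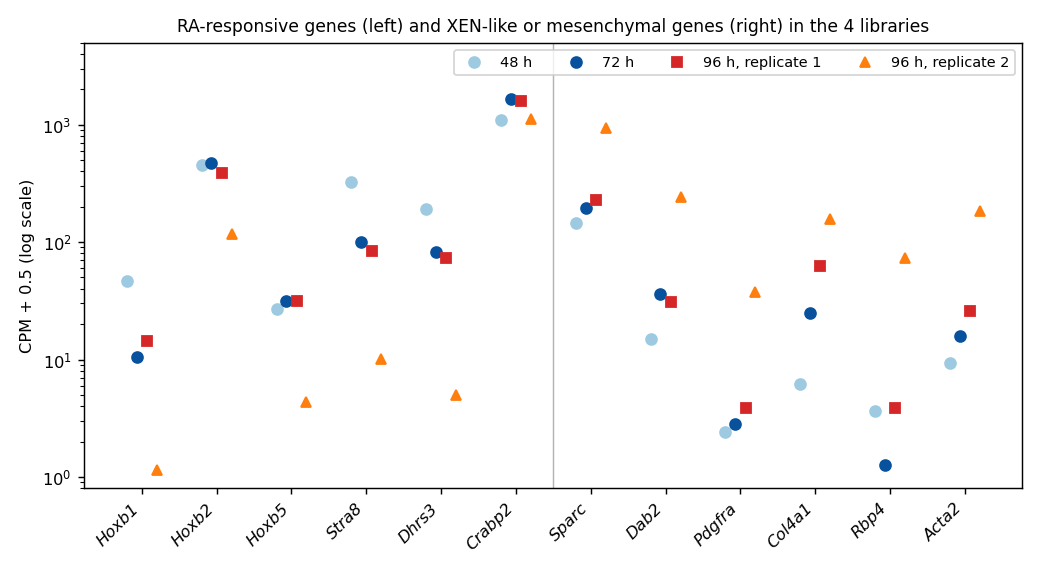
CPM plus 0.5 on a log axis (y) of 6 genes known to respond to RA, chosen for their values, (left of the line) and 6 XEN or mesenchymal genes (right) in the 4 libraries, with circles for 48 h and 72 h, squares for replicate 1 and triangles for replicate 2 at 96 h. Replicate 2 is the lowest library for Stra8 and Dhrs3 (9.69 and 4.52 CPM) and the highest for Sparc, Dab2 and Pdgfra (935, 242 and 36.8 CPM).

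No gene differed between 72 h and 96 h after adjustment, by edgeR or by DESeq2. At an unadjusted p under 0.05, 167 genes were higher at 96 h (1.71% of 9750) and 73 lower (0.749%), and the lowest adjusted p was 1.0. Among the genes with the lowest unadjusted p were Upp1 (log2 fold change of 96 h against 72 h -1.87), Dppa5a (-1.52), Cyr61 (2.01) and Csn3 (-2.08). Without replicate 1, 3 genes were higher and 0 lower. The change from 72 h to 96 h was then set against that of PDGFRA-positive cells over the same hours. The interaction gave 0 genes by edgeR and 0 by DESeq2, with 47 higher (0.482%) and 38 lower (0.39%) at an unadjusted p under 0.05.

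From 48 h to 72 h, with 1 library each and no test, 297 of 4089 genes with at least 50 UMIs in 1 of the 4 libraries were at least 2 times higher (7.26%) and 185 were at most 0.5 times as high (4.52%). With TMM-scaled totals the split turned to 159 and 313. Without a replicate at either time, the counts compare these libraries and not the times.

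Steady changes over all 3 times were found in few genes. A gene was called rising when it was 1.5 times higher at 72 h than at 48 h and 1.5 times higher again in both libraries at 96 h, and falling in the reverse case. There were 42 rising genes (1.03% of 4089) and 52 falling genes (1.27%). Beside these counts, 1080 genes (26.4%) differed at least 1.5 times between the replicates at 96 h and 375 (9.17%) at least 2 times, so the replicate spread was of the size of a step. With TMM-scaled totals there were 26 and 63. Without replicate 1 at 96 h there were 104 rising and 234 falling genes, and without replicate 2 there were 205 and 61. The rising genes with the largest change were Crabp1, Cyr61, Col4a2, Col4a1, Ptn, Igfbp5, Jun and Tpm1, and the falling ones Csn3, 2410088K16Rik, 1700029P11Rik, A430089I19Rik, Plac9b, Fam25c, Dnmt3l and Upp1. Col4a1 and Col4a2 are XEN markers, whose summed level was 485 and 1780 CPM in replicates 1 and 2 at 96 h. Col4a1 was not called (adjusted p = 0.0886) and Col4a2 lost its call without replicate 2 (adjusted p = 0.0802). Sox11, Nes and Peg3 were also rising and Pou5f1, Dppa2 and Dppa5a falling. Of the 87 block genes none met either pattern, but 80 were among the 234 falling genes without replicate 1 at 96 h, 28 were falling with the mean of all CD24 gates and 12 with the mean at 96 h.

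Transient genes were not found at this depth: 0 of 4089 genes (0.0%) were at least 2 times higher at 72 h than at 48 h and than both libraries at 96 h. With 1 library at 96 h, 5 (without replicate 1) or 1 (without replicate 2) would count. Id3 had its highest value at 72 h, with 689 CPM against 610 and 393 CPM at 96 h, and so did Fgf15 with 86.7 CPM against 47.2 and 84.0 CPM. The reverse, a dip at 72 h, was met by 3 genes (0.0734%), Basp1 and Ccdc104 among them, and by 8 or 9 without replicate 1 or 2. Basp1, a growth cone protein, was at 27.1 CPM at 48 h, 8.44 CPM at 72 h, and 27.8 and 25.2 CPM at 96 h, on 11 UMIs at 72 h. The whole cultures had no such dip in Basp1, at 57.3, 55.6 and 74.8 CPM for 48 h, 72 h and 96 h.

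Other genes took 1 step. Defined after the data were seen, an early step up (at least 2 times from 48 h to 72 h, and within 1.5 times in both libraries at 96 h) was met by 153 genes (3.74% of 4089), of which 6 (3.92%) were called higher, beside 0.538% of the 4089 genes: Id1, Id2, Ccnd2, Ednrb, Nr2f2 and Nedd9. An early step down was met by 29 genes (0.709%), 13 of them (44.8%) called lower, beside 4.3% of the 4089 genes, among them Scd1, which makes monounsaturated fatty acids, and Rhox5, an X-linked homeobox gene. The call of Rhox5 was lost without replicate 2 (adjusted p = 0.135), and that of Scd1 without replicate 1 (adjusted p = 0.0738) or replicate 2 (adjusted p = 0.117). With TMM-scaled totals the early steps were met by 71 genes up and 69 down, so the surplus of upward steps depends on the scaling, and the calls share the 48 h library with the steps. A late step, between 72 h and 96 h only, was met upward by 18 genes and downward by 1, Tex19.1, and none of these was called. Igf2, an imprinted growth factor, was 1 of the 18, with 48.0 CPM at 48 h, 33.0 CPM at 72 h, and 69.5 and 117 CPM at 96 h.

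The same genes were set side by side over the CD24 gates of a time point. The top quartile at 48 h is the library from which these genes were called, so its position among the gates follows in part from that choice, and the counts at 48 h are a description. Of the 25 genes that rose, 23 were higher in the top than in the bottom CD24 tercile at 72 h and 14 were higher in the top than in the bottom quartile at 48 h. Over all 9750 genes 5070 and 5293 were. Ccnd2 was at 35.0, 130 and 470 CPM from the bottom to the top tercile, and Id3 at 256, 493 and 689 CPM. Crabp1 was at 16.7, 19.3, 42.3 and 38.5 CPM from the bottom to the top quartile at 48 h, and at 97.9, 206 and 291 CPM over the terciles at 72 h. The bottom tercile at 72 h thus lay above the top quartile at 48 h for Crabp1 and Id3, and at 35.0 against 42.3 CPM not for Ccnd2.

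Of the 142 genes that fell outside the block, 2 were higher in the top than in the bottom tercile at 72 h and 36 were higher in the top than in the bottom quartile at 48 h. Dppa5a was at 5700, 5730, 5150 and 3720 CPM over the quartiles and at 3980, 1630 and 1050 CPM over the terciles. It was lower with CD24 at 72 h throughout. Csn3 went the other way at 48 h, at 282, 372, 461 and 516 CPM over the quartiles, and was then at 82.4, 49.4 and 50.7 CPM over the terciles, so that each gate at 72 h lay below each gate at 48 h. None of the 67 block genes that fell was higher in the top gate at either time.

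**Figure D5:**
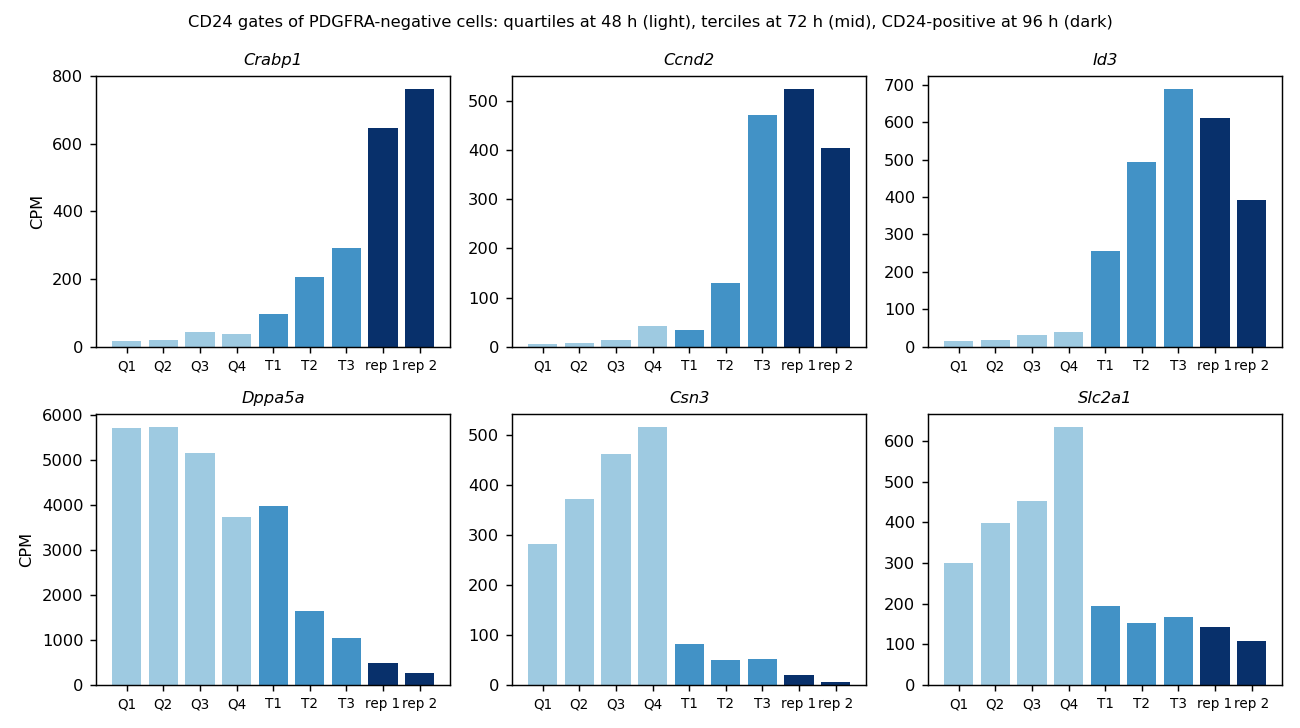
CPM (y axis, from 0) of 6 genes in PDGFRA-negative cells by CD24 gate (x axis), from the bottom quartile (Q1) to the top (Q4) at 48 h, from the bottom tercile (T1) to the top (T3) at 72 h, and in replicates 1 and 2 of CD24-positive cells at 96 h. Ccnd2 reaches 470 CPM in T3 from 35.0 CPM in T1, and Csn3 is highest in Q4 at 516 CPM.

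Several programmes gave no call. None passed among 21 tested genes of DNA replication, 20 of mitosis, 14 p53 targets, 15 of the Wnt and Nodal pathways, 14 cadherin and adhesion genes, 10 mesenchymal genes and 8 of surface ectoderm and keratins. Their median log2 fold changes were 0.11, -0.12, -0.04, 0.57, 0.63, 0.49 and 1.65. The summed level of the mitosis genes was 2420 CPM at 48 h, 2690 CPM at 72 h, and 3320 and 2310 CPM at 96 h, so that replicates at 96 h lay on both sides of the earlier libraries. For the keratin list it was 52.4 CPM at 48 h, 106 CPM at 72 h, and 128 and 434 CPM at 96 h, with replicate 2 apart. Of the ectoderm list, 1 of 11 tested genes rose, Crabp1, and its other members Prtg, Mdk and Fabp5 had log2 fold changes of 0.84, 0.35 and 1.00 (adjusted p of 0.337, 0.817 and 0.502).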

How the data were processed

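Bulk RNA-seq libraries were made from 3′ ends with UMIs. The authors used BWA 0.7.4 with mouse RefSeq mRNAs as the reference and deposited counts of UMIs per gene without normalization. The submitters' processing notes also name mm10, TopHat and Cuffnorm, without a role. Of 23481 genes, 2 with 3 damaged values were left out, and 27 genes named as dates kept those names. Groups came from the labels. The members and the gene lists were chosen with earlier results of these data known.

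CPM were computed by library totals, which ranged from 1063830 to 2459483 over the 25 bulk libraries. The test was edgeR 4.0.16 in R 4.3.3 (TMM, filterByExpr, quasi-likelihood, Benjamini-Hochberg over 9750 genes, threshold 0.05) on 9 libraries, with a common biological coefficient of variation of 0.252. It was tested on simulated data. Standard errors of log2 fold changes are those implied by the test. For 72 h against 48 h, ratios carry exact 95% intervals (binomial, given the summed count). Patterns used counts under 3 set to 3. DESeq2 1.42.0, other scaling, filters, libraries and folds were alternatives. Genes were named from the lists, or as the 10 largest changes per direction with at least 50 counts and no overlap between 48 h and 96 h, and the 8 largest per pattern; others are said to have been chosen after their values were seen. Promoters are RefSeq (GRCm38.p6), transcripts and gene positions GENCODE M21 (GRCm38). Python 3.11.15 with pandas 2.3.3, numpy 2.4.6, scipy 1.17.1 and matplotlib 3.10.9 was used. Some genes are not reported here.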

Additional observations from a re-analysis of the deposited data

How the results depend on the processing

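Genes that rose from 48 h to 96 h numbered 9 with library totals only, 158 of 17060 with no low-count filter, 214 with only the 4 libraries of the series, and 15 to 53 with 1 library left out. Genes that fell numbered 36, 410 and 399 under the same settings and 65 to 288 with 1 library left out. Under RLE factors the counts were 26 and 228, under DESeq2 26 and 170, with all 25 bulk libraries 32 and 233. From 72 h to 96 h no filter gave 17 higher and 9 lower, the 4 libraries alone 28 and 13, and leaving out 1 library 0 to 3 and 0. The interaction gave 1 higher gene with no filter. Of 58 named genes over 579 gene and alternative pairs, 490 kept the call, 89 lost it and 0 reversed, and 22 genes kept it in all. The cause of these moves was not tested, beyond the number of genes and libraries each setting holds.

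Rising, falling, transient and dip genes numbered 9, 22, 0 and 0 with folds of 2 per step and 3, 26, 63, 0 and 5 with TMM-scaled totals, 127, 104, 14 and 68 of 9078 with a minimum of 10 counts, 11, 10, 0 and 0 of 1392 with a minimum of 200, 83, 104, 0 and 0 with the mean of all CD24 gates, and 150, 101, 2 and 8 with the mean at 96 h. Leaving out a replicate at 96 h gave 104 to 205, 61 to 234, 1 to 5 and 8 to 9. From 48 h to 72 h, genes 2 times higher and at most 0.5 times as high numbered 159 and 313 with TMM-scaled totals, 1076 and 625 with a minimum of 10, and 66 and 65 with a minimum of 200. Settings for 48 h to 72 h and those leaving out an mESC library were chosen after seeing the data, as was the count of genes outside the block.

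No paired analysis was possible because the 48 h and 72 h libraries carry no replicate number. With 1 library at 48 h and at 72 h, and a median standard error of 0.53 to 0.54 on the log2 scale, smaller changes were not detectable, and library, gate and time cannot be told apart.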
